A study of Saccharomyces cerevisiae with 8 samples.

Results

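Transcript levels in budding yeast (Saccharomyces cerevisiae) lacking SWI4 were set against those in yeast lacking ARD1. The comparison rests on the 2 arrays labelled as a swi4 deletion and the 2 labelled as an ard1 deletion, which are 4 of the 8 arrays in the series. It covers the 5449 genes that had a gene symbol. The other 4 arrays, 2 of a wild type (wt) and 2 of a dot1 deletion, entered only through the shared estimate of the spread between replicates. Every culture grew in YPD, a rich medium, at 30 C until it reached an OD600 of 0.7, and total RNA was hybridised to 1 Affymetrix array per culture. The labels give each strain by the deleted gene alone and call the 2 arrays of each group biological replicates. The strain background, the mating type, the marker used for each deletion and the number of independent clones were not given in the labels. The title of the series asks about Dot1 and the silencing of heterochromatin, and the labels do not say what a direct comparison of swi4 with ard1 was meant to answer.

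Swi4 binds DNA for SBF, the transcription factor that turns on G1 cyclin genes and many cell wall genes when a cell commits to division. SBF shares its Swi6 subunit with MBF, the factor whose DNA-binding subunit is Mbp1 and whose targets act mainly in DNA replication. Ard1 is the catalytic subunit of NatA, which acetylates the N-termini of a large share of yeast proteins as they leave the ribosome, and which is known for its part in mating, silencing and stress resistance. One strain therefore lacks a transcription factor with direct target genes, and the other lacks a protein-modifying enzyme.

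The replicates of both groups were close. The standard deviation (SD) over genes of the difference between replicates was 0.14 on the log2 scale in swi4 and 0.17 in ard1, and the SD of the difference swi4 minus ard1 was 0.44. The median of that difference over all genes was −0.03. Differences are given as swi4 minus ard1 on the log2 scale of the array intensity with limma's standard error (SE) after the ± sign, and levels are log2 intensities of replicates 1 and 2 in that order. A gene is called, and said to rise or fall in swi4 relative to ard1, where its Benjamini-Hochberg adjusted p in limma was under 0.05 over all genes. By this rule 494 genes (9.07% of those tested) were higher in swi4 and 338 (6.20%) were lower, so that 15.3% were called. Of these, 120 were higher and 62 were lower by at least 2-fold. Both swi4 arrays lay above both ard1 arrays in 33.3% of all genes and below them in 40.9%. With 2 arrays per group the smallest two-sided exact permutation p is 0.333, so a single gene could not pass by permutation.

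The number of calls depended on the arrays compared and on the arrays that set the spread. Leaving out 1 of the 4 arrays compared leaves 1 array in its group. This widens the SE for the same spread and lowers the residual degrees of freedom. Fewer calls can then follow even where a difference does not move, here and in the lists below, so such a loss does not show that a result rests on 1 array. The 832 calls became 56 without swi4 replicate 1, 193 without swi4 replicate 2, 143 without ard1 replicate 1 and 166 without ard1 replicate 2. A core of 54 genes, 31 higher and 23 lower, was called whichever of the 4 arrays was left out. With only the 4 swi4 and ard1 arrays in the fit, 1017 genes were higher (18.7%) and 1210 lower (22.2%), and all 832 calls were among them. List counts from that fit given below are to be set against these shares. Leaving out either wt array gave more calls in each direction. Both omissions amount to the same fit for this contrast, since 1 remaining wt array adds nothing to the spread, so they are not separate checks.

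**Figure D1:**
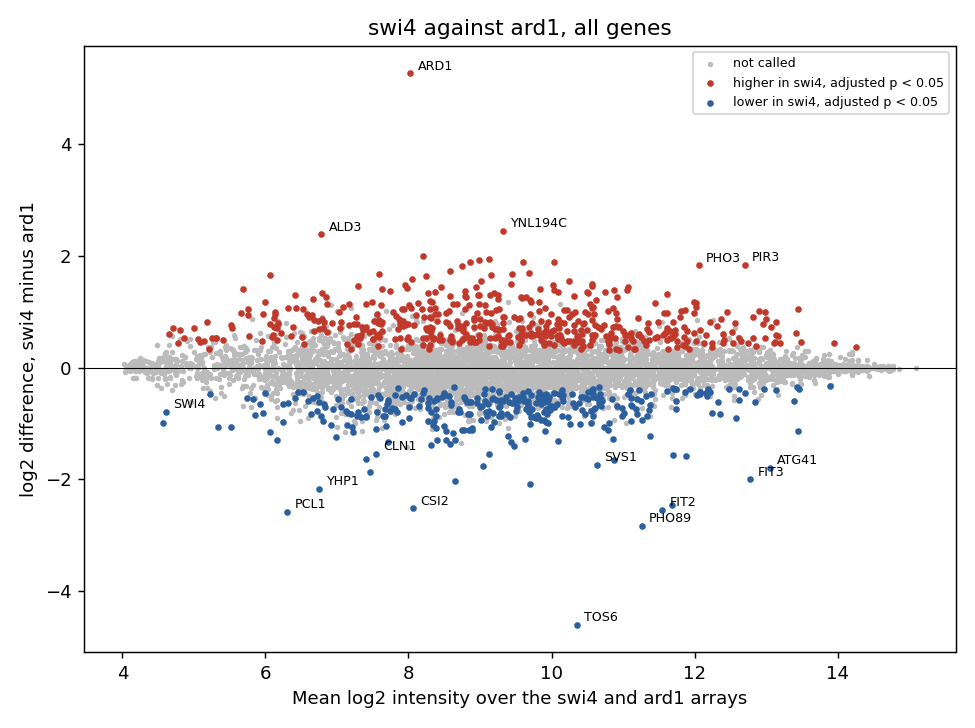
Difference between swi4 and ard1 (y axis, log2, swi4 minus ard1) against the mean log2 intensity over the 4 arrays (x axis) for the 5449 genes. Red and blue points are the 494 genes called higher and the 338 called lower in swi4. ARD1 and TOS6 lie farthest from 0, at 5.26 and −4.60.

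Both deleted genes were low in their own mutant. ARD1 read 10.56 and 10.75 in swi4, against 5.57 and 5.22 in ard1, and was 38.4-fold higher in swi4 (5.26 ± 0.18, adjusted p = 6.17e-05). SWI4 read 4.21 and 4.22 in swi4, against 4.94 and 5.07 in ard1 (−0.79 ± 0.14, adjusted p = 0.0153). The SWI4 probe set was dim in both groups, and its swi4 level lay close to 4.02, the lowest mean of any gene. Its call was lost when any 1 of the 4 arrays was left out (adjusted p = 0.114, 0.0913, 0.0811 and 0.108 without swi4 replicates 1 and 2 and ard1 replicates 1 and 2). The genes beside the deletions were not called by the rule above. KAP123 and LSM4, next to SWI4, differed by −0.18 ± 0.08 and −0.45 ± 0.19, and VPS29 and SPO13, next to ARD1, by −0.12 ± 0.15 and 0.32 ± 0.13. With only the 4 arrays compared in the fit, LSM4 was called lower and SPO13 higher (limma adjusted p = 0.00464 and 0.0289). KAP123 and VPS29 were not called in that fit.

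The genes lowest in swi4 relative to ard1 fell into SBF targets and iron uptake genes, with a phosphate transporter and a cell wall mannoprotein among them. TOS6, a cell wall protein gene named as a target of SBF, read 8.12 and 7.98 in swi4, against 12.61 and 12.69 in ard1. This was a 24.3-fold difference (−4.60 ± 0.09, adjusted p = 4.12e-06), and the groups lay far apart. PHO89, a sodium-phosphate cotransporter gene, read 9.72 and 9.97 in swi4, against 12.64 and 12.71 in ard1 (7.12-fold lower, −2.83 ± 0.12). HPF1, which encodes a cell wall mannoprotein, read 10.52 and 10.38 in swi4, against 12.93 and 12.89 in ard1 (−2.46 ± 0.10). Both genes were called whichever array was left out. YGR035C, of unknown function, and AQY2, an aquaporin gene, also fell (−2.03 ± 0.26 and −1.77 ± 0.16). ATG41, an autophagy gene, was 3.46-fold lower (−1.79 ± 0.19). PDH1, a gene of propionate metabolism in mitochondria, read 6.57 and 6.48 in swi4, against 9.01 and 7.79 in ard1. Its ard1 replicates differed by more than a log2 unit, and its call (−1.87 ± 0.40, adjusted p = 0.0265) was kept in 1 of the 4 fits that left out an array.

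Besides ARD1, the genes highest in swi4 relative to ard1 included stress genes, a cell wall gene and genes of thiamine metabolism. FCY21, which encodes a relative of the purine and cytosine permease, and MSA2, a regulator of SBF, were also among them. YNL194C, which encodes a membrane protein related to Sur7, read 10.54 and 10.55 in swi4, against 7.74 and 8.45 in ard1 (5.47-fold higher, 2.45 ± 0.30, adjusted p = 0.00514). ALD3, an aldehyde dehydrogenase gene, read 8.01 and 7.93 in swi4, against 5.51 and 5.67 in ard1 (5.19-fold higher, 2.38 ± 0.22). PIR3, a cell wall protein gene, read 13.65 and 13.59 in swi4, against 11.76 and 11.80 in ard1 (1.84 ± 0.17). In these genes the groups were separated by far more than the gap between replicates. RTN2, a reticulon gene, was higher by 1.89 ± 0.15, and NQM1, a transaldolase gene, by 1.94 ± 0.22. FMP16 rose by 1.92 ± 0.30 and AFR1, which acts in adaptation to pheromone, by 1.72 ± 0.20. YNL195C, next to YNL194C in systematic order, was higher by 1.70 ± 0.30, and this call was lost in each of the 4 fits that left out an array. YER053C-A, a small gene, read 8.99 and 9.42 in swi4, against 6.76 and 7.66 in ard1 (1.99 ± 0.31).

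**Figure D2:**
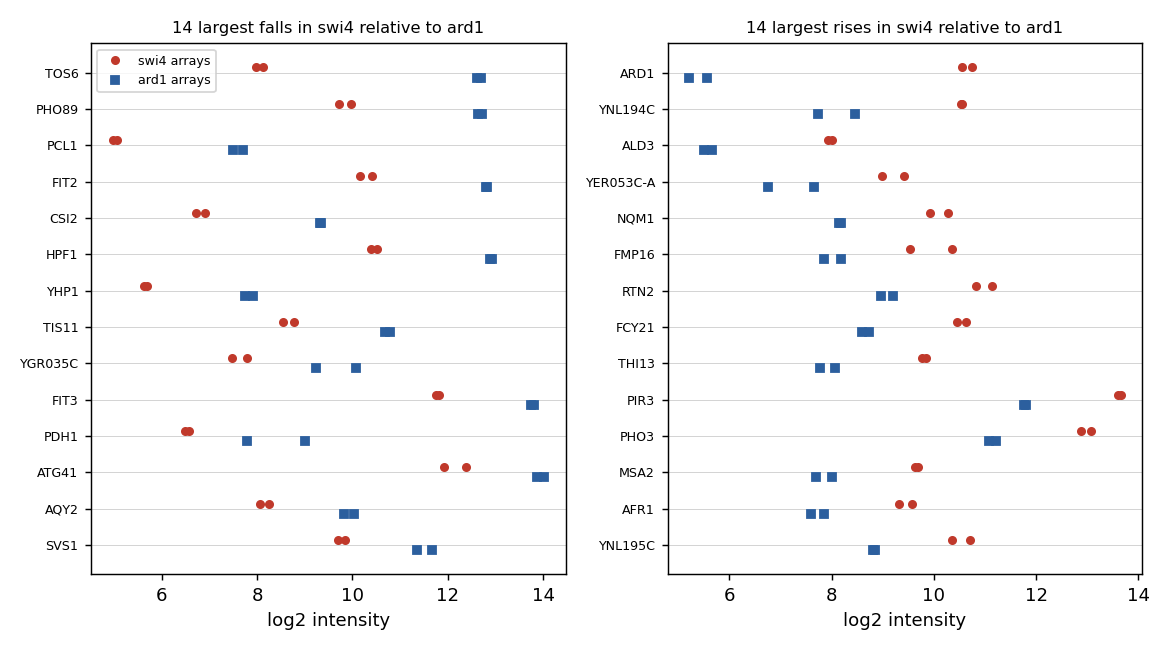
Log2 intensity (x axis) on each array for the 14 genes with the largest falls (left) and the 14 with the largest rises (right) in swi4 relative to ard1. Circles are the 2 swi4 arrays and squares the 2 ard1 arrays. In every gene shown the 2 groups do not overlap, which the rule for naming genes required.

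Of 29 genes listed as SBF targets, 11 fell in swi4 relative to ard1 and 2 rose (37.9% and 6.9%, against 6.20% and 9.07% of all genes). The median difference was −0.29, with 22 of 29 negative. Among the cyclins, PCL1, a partner of the Pho85 kinase, read 5.06 and 4.97 in swi4, against 7.70 and 7.49 in ard1 (5.99-fold lower, −2.58 ± 0.17). CLN1, a G1 cyclin gene, read 6.78 and 6.78 in swi4, against 8.29 and 8.35 in ard1 (−1.54 ± 0.17). Its close relative CLN2 differed by −0.29 ± 0.17 and was not called (adjusted p = 0.29, 95% interval −0.68 to 0.11). Of the 6 genes on the G1 cyclin list these 2 were called. CLN3, the upstream cyclin that starts SBF activation, read 12.87 and 12.85 in swi4, against 12.49 and 12.33 in ard1, and was not called (0.45 ± 0.23).

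Among the other SBF targets, YHP1 encodes a homeobox repressor and was 4.50-fold lower (−2.17 ± 0.20), at 5.63 and 5.68 in swi4, against 7.74 and 7.91 in ard1. CSI2 read 6.71 and 6.91 in swi4, against 9.32 and 9.34 in ard1 (5.74-fold lower, −2.52 ± 0.13). SVS1, a cell wall gene, read 9.85 and 9.69 in swi4, against 11.66 and 11.36 in ard1 (3.35-fold lower, −1.74 ± 0.14). Both swi4 arrays lay below both ard1 arrays in 18 of the 29 genes, where 40.9% of all genes did so. The 2 rises were those of CWP1, a cell wall mannoprotein gene (0.53 ± 0.09), and TOS2, a bud neck gene (0.42 ± 0.11, adjusted p = 0.0455). The TOS2 call was lost after median centring or quantile normalization. Members called lower numbered 5, 7, 7 and 8 when swi4 replicate 1, swi4 replicate 2, ard1 replicate 1 and ard1 replicate 2 were left out in turn, and none was called higher. In cultures of mixed cells, a smaller share of cells in a cell cycle stage and less RNA per cell cannot be told apart.

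**Figure D3:**
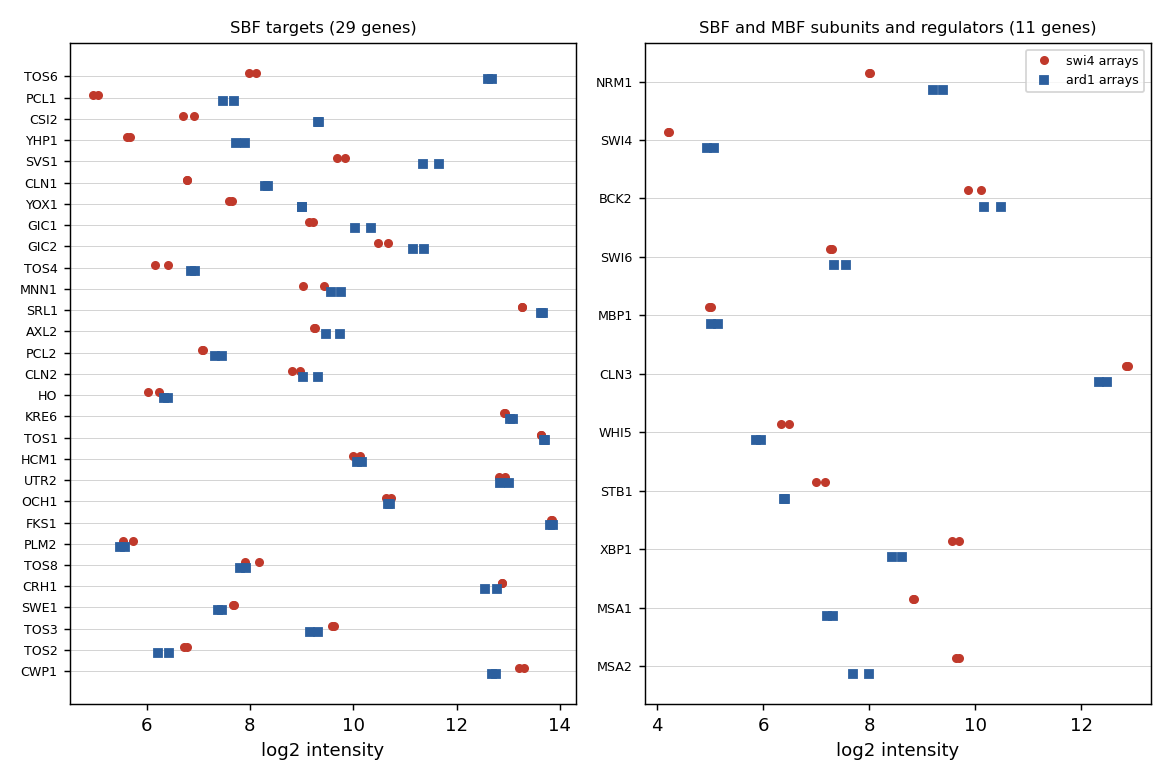
Log2 intensity (x axis) on the 2 swi4 arrays (circles) and 2 ard1 arrays (squares) for the 29 SBF targets (left) and the 11 SBF and MBF subunits and regulators (right), ordered by the difference. TOS6, PCL1, CSI2 and YHP1 lead the falls among the targets, and MSA1 and MSA2 lead the rises among the regulators.

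The regulators of SBF and MBF moved in both directions. Of 11 genes on this list 5 rose and 2 fell in swi4 relative to ard1 (45.5% and 18.2%, against 9.07% and 6.20% of all genes). MSA2 and MSA1, which encode related proteins that bind SBF and MBF and help to time G1 transcription, were both higher in swi4. MSA2 read 9.69 and 9.63 in swi4, against 8.0 and 7.70 in ard1 (3.51-fold higher, 1.81 ± 0.16), and was called whichever array was left out. MSA1 read 8.83 and 8.84 in swi4, against 7.21 and 7.31 in ard1 (2.98-fold higher, 1.58 ± 0.18). XBP1, a stress-induced repressor gene, was higher by 1.12 ± 0.23 and STB1, which encodes a Swi6-binding protein, by 0.69 ± 0.10. WHI5, the repressor of SBF, rose by 0.49 ± 0.10. The 2 falls were those of SWI4 itself, described above, and NRM1. NRM1, a co-repressor of MBF, read 8.01 and 8.0 in swi4, against 9.39 and 9.21 in ard1 (2.46-fold lower, −1.30 ± 0.09). The shared subunit gene SWI6 and the MBF subunit gene MBP1 were not called (−0.18 ± 0.22 and −0.09 ± 0.20). With swi4 replicate 1 left out MSA2 alone was called higher, and each other omission left 2 such genes.

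Of 25 MBF targets 2 rose and 1, NRM1, fell (8.0% and 4.0%, against 9.07% and 6.20% of all genes), with a median of 0.04. The rises were those of CDC21, the thymidylate synthase gene (0.76 ± 0.12), and RFA2, a subunit of the single-strand DNA binding complex (0.59 ± 0.10). All 9 measured histone genes had negative differences (median −0.21, where 54.2% of all genes were negative), and 1 was called, HHT1, an H3 gene (−0.60 ± 0.10). Mitotic genes of the CLB2 cluster had 0 calls among 13 in limma (2 at an unadjusted p under 0.05), and the largest difference was that of CLB1 (−0.40 ± 0.16, adjusted p = 0.131). With only the 4 arrays in the fit, 2 of these 13 were higher and 2 lower, and 4 histone genes were lower. In that fit 18.7% of all genes were higher and 22.2% lower.

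Nuclear genes for mitochondrial proteins split by function. Genes of the respiratory chain and ATP synthase were higher in swi4 than in ard1, while genes of the mitochondrial ribosome, which translates the subunits encoded by mitochondrial DNA, were lower. All 39 respiratory genes had positive differences (45.8% of all genes were positive), and 28 rose (71.8%, against 9.07% of all genes), with a median of 0.55. Of 65 mitochondrial ribosomal protein genes 64 had negative differences and 50 fell (76.9%, against 6.20%), with a median of −0.63. Both swi4 arrays lay above both ard1 arrays in all 39 respiratory genes (33.3% of all genes). They lay below them in 64 of the 65 ribosomal protein genes (40.9% of all genes). The exception was MRPL4, at 8.71 and 8.58 in swi4, against 8.56 and 8.38 in ard1 (0.17 ± 0.12).

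In the respiratory list, CYC7, the gene for the minor form of cytochrome c, read 10.72 and 10.37 in swi4, against 8.96 and 9.30 in ard1 (2.66-fold higher, 1.41 ± 0.25). QCR10 and QCR6, which encode subunits of the cytochrome bc1 complex, were higher by 1.35 ± 0.15 and 1.23 ± 0.15. NDI1, the internal NADH dehydrogenase gene, read 11.61 and 11.48 in swi4, against 10.17 and 10.37 in ard1 (1.27 ± 0.12), and was called whichever array was left out. In the mitochondrial ribosome, MRPL24 read 7.0 and 6.99 in swi4, against 8.01 and 8.17 in ard1 (2.14-fold lower, −1.10 ± 0.17). RSM19 read 8.62 and 8.63 in swi4, against 9.56 and 9.80 in ard1 (−1.06 ± 0.16), and MRPS17 and MRPS28 also fell (−1.05 ± 0.27 and −1.02 ± 0.25). Respiratory genes called higher numbered 4, 16, 8 and 8 with swi4 replicates 1 and 2 and ard1 replicates 1 and 2 left out in turn, and mitochondrial ribosomal protein genes called lower numbered 0, 1, 1 and 1. The medians in those fits stayed between 0.50 and 0.65 for the respiratory genes, and between −0.67 and −0.61 for the mitochondrial ribosome.

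**Figure D4:**
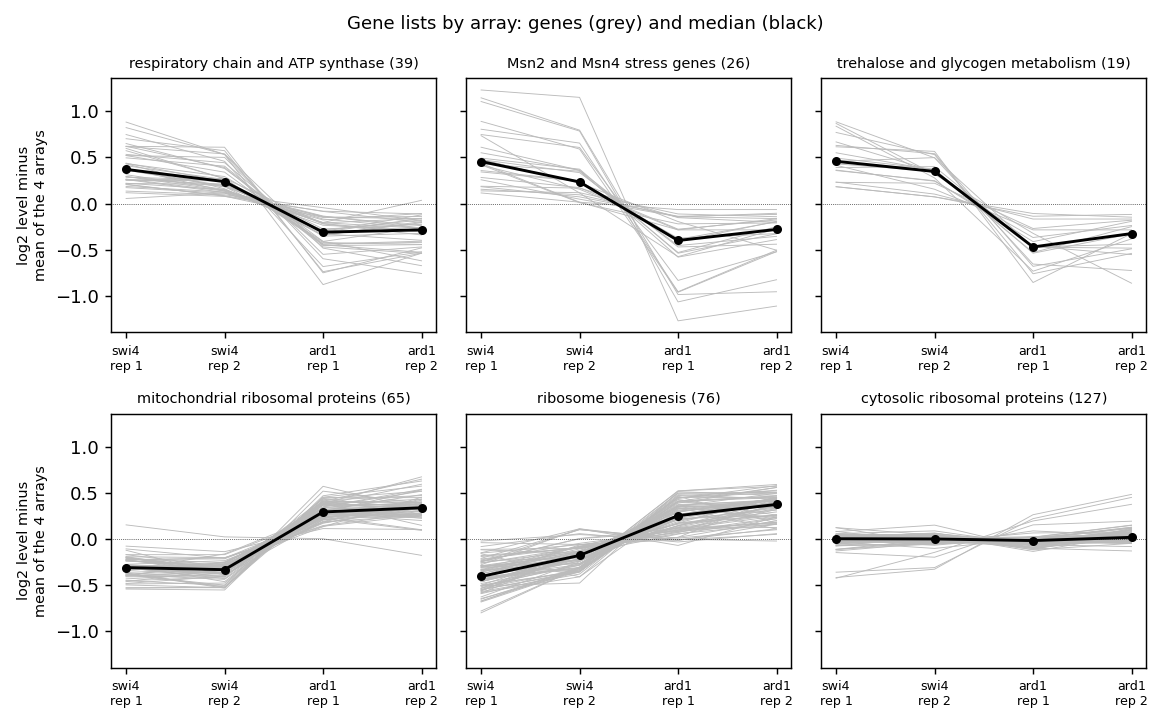
Level of each gene (grey lines) and the list median (black) on each of the 4 arrays, as log2 intensity minus that gene's mean over the 4 arrays (y axis). Respiratory chain, stress and glycogen genes lie higher on both swi4 arrays, mitochondrial ribosomal protein and ribosome biogenesis genes lie lower, and cytosolic ribosomal protein genes stay near 0.

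Cytosolic ribosomal protein genes did not follow the mitochondrial ribosome, while nearly all ribosome biogenesis genes had negative differences. Of 127 cytosolic ribosomal protein genes 2 fell (1.57%, against 6.20% of all genes) and 0 rose, with a median of 0.00. They were RPS9A (−0.74 ± 0.11) and RPL22B (−0.67 ± 0.15), each one of a duplicated pair of genes, and 26 of the 127 are read by probe sets shared between transcripts. Ribosome biogenesis genes, which act in the nucleolus to make ribosomal subunits, had negative differences in 75 of 76 cases, with a median of −0.63, but only 8 were called (10.5%, against 6.20%). Among them UTP6 read 7.96 and 8.45 in swi4, against 9.28 and 9.35 in ard1 (−1.11 ± 0.29). The helicase gene DBP8 fell (−1.08 ± 0.24), as did IMP4 and IMP3, of the small subunit processome (−1.01 ± 0.22 and −1.0 ± 0.25). With only the 4 arrays in the fit, 63 of the 76 were called lower (22.2% of all genes were), and none were called with any 1 of the 4 arrays left out. The 2 replicates of wt and of dot1, which also set the spread in the fit of 8 arrays, had list medians of 9.90 and 10.54 in wt and 9.22 and 9.86 in dot1.

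Genes of reserve carbohydrate metabolism were higher in swi4 than in ard1. All 19 genes of trehalose and glycogen metabolism had positive differences, and 14 rose (73.7%, against 9.07%), with a median of 0.87. GDB1, the glycogen debranching enzyme gene, read 11.76 and 11.37 in swi4, against 10.22 and 10.15 in ard1 (2.60-fold higher, 1.38 ± 0.23). GLG1, a glycogenin gene that primes glycogen, read 9.76 and 9.52 in swi4, against 8.23 and 8.45 in ard1 (2.46-fold higher, 1.30 ± 0.12). GSY1, a glycogen synthase gene, was higher by 1.18 ± 0.17 and ATH1, the acid trehalase gene, by 1.17 ± 0.11. Genes of synthesis and of breakdown were thus among the rises. Members called numbered 2, 5, 4 and 7 with swi4 replicates 1 and 2 and ard1 replicates 1 and 2 left out in turn, and the median stayed between 0.76 and 0.93.

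The general stress response driven by Msn2 and Msn4 differed in the same direction, whereas heat shock chaperone genes did not. Of 26 Msn2 and Msn4 genes 15 rose (57.7%, against 9.07% of all genes) and 0 fell. All 26 were positive, where 45.8% of all genes were, and the median was 0.70. They were led by ALD3, NQM1, RTN2 and DCS2, an mRNA decapping regulator gene (1.48 ± 0.20), and 6 of the 26 genes are also on the trehalose and glycogen list, 4 of them among the rises of both. HSP12 and HSP26, small heat shock protein genes on this list, were not called (0.85 ± 0.38 and 0.43 ± 0.20, adjusted p = 0.174 and 0.192). With only the 4 arrays compared in the fit, 25 of the 26 were called higher, where 18.7% of all genes were. HSP12 and HSP26 were thus not both missed in that fit. Both swi4 arrays lay above both ard1 arrays in all 26 (33.3% of all genes). Of 29 chaperone genes 2 rose and 2 fell (6.9% each, near the 9.07% and 6.20% of all genes), with a median of −0.08. The rises were those of SSE2 (0.64 ± 0.10) and SSA3 (0.49 ± 0.11), of the Hsp110 and Hsp70 families. APJ1, a J-protein gene, read 9.03 and 8.95 in swi4, against 10.26 and 10.25 in ard1 (2.41-fold lower, −1.27 ± 0.16), and CUR1, which sorts misfolded proteins, also fell (−0.94 ± 0.23). Stress genes called higher numbered 2, 9, 6 and 11 with swi4 replicates 1 and 2 and ard1 replicates 1 and 2 left out in turn.

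**Figure D5:**
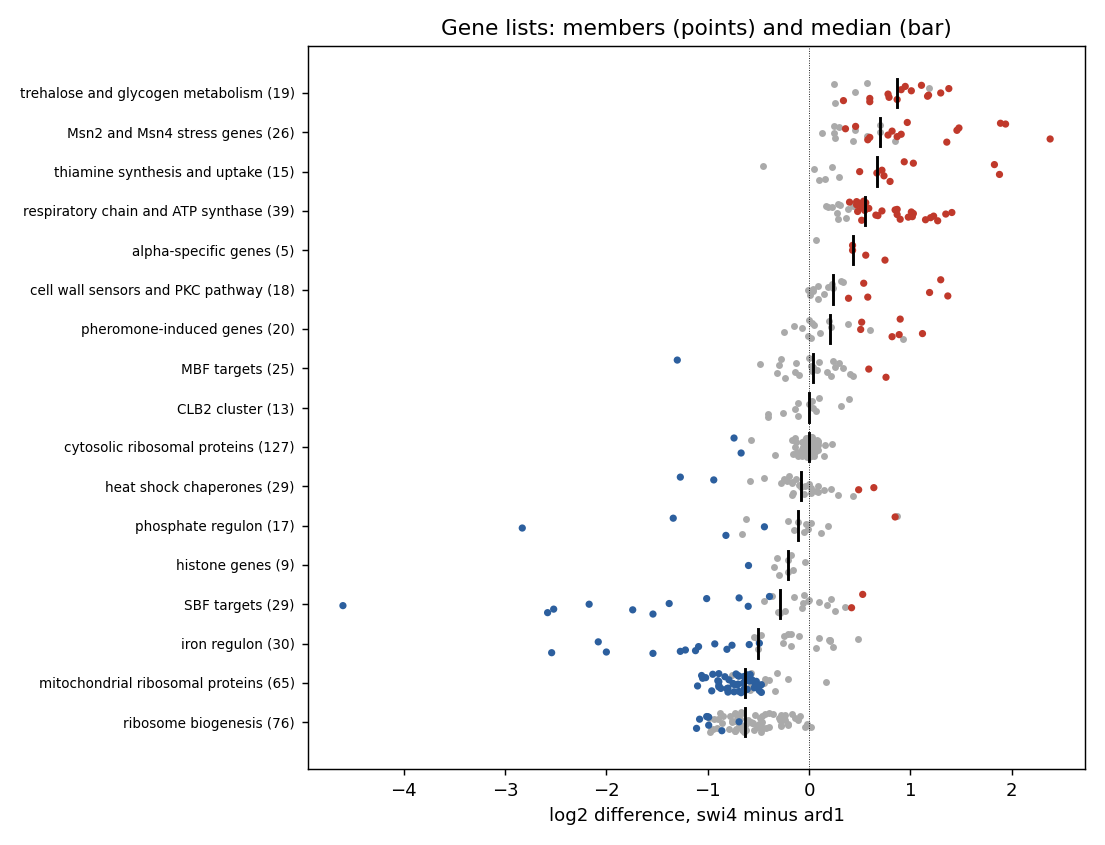
Differences of the members (points, log2, swi4 minus ard1) of 17 gene lists, with the list median (bar) and the number of measured members in parentheses. Red and blue points were called higher and lower in swi4. Medians run between 0.87 for trehalose and glycogen metabolism and −0.63 for the mitochondrial ribosome and ribosome biogenesis.

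Of 30 genes of the iron regulon, which Aft1 turns on when iron is scarce, 13 fell (43.3%, against 6.20%) and 0 rose, with a median of −0.50. FIT2, FIT3 and FIT1 encode cell wall mannoproteins that hold siderophore-bound iron. FIT2 read 10.15 and 10.41 in swi4, against 12.80 and 12.83 in ard1 (5.82-fold lower, −2.54 ± 0.11). FIT3 read 11.76 and 11.81 in swi4, against 13.82 and 13.74 in ard1 (4.0-fold lower, −2.0 ± 0.12). FIT1 also fell (−1.54 ± 0.21). TIS11, which encodes a factor that degrades mRNAs of iron-using proteins, read 8.54 and 8.77 in swi4, against 10.69 and 10.79 in ard1 (4.24-fold lower, −2.08 ± 0.19). Members called numbered 5, 6, 5 and 8 with swi4 replicates 1 and 2 and ard1 replicates 1 and 2 left out in turn, and FIT2, FIT3 and TIS11 were called in all 4 fits.

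Apart from thiamine synthesis and uptake, the other nutrient regulons had fewer calls or differed in direction among members. Of 17 phosphate regulon genes 4 fell and 1 rose (23.5% and 5.88%, against 6.20% and 9.07% of all genes), with a median of −0.11. Besides PHO89 the falls were those of PHM6 (−1.34 ± 0.26), the secreted acid phosphatase gene PHO5 (−0.82 ± 0.13) and the low-affinity transporter gene PHO90 (−0.44 ± 0.11), and the rise was that of PHM8, a nucleotidase gene (0.85 ± 0.09). Of 15 genes of thiamine synthesis and uptake 9 rose and 0 fell (60.0%, against 9.07%), with a median of 0.67. PHO3, an acid phosphatase gene that frees thiamine from its phosphates, read 12.87 and 13.07 in swi4, against 11.21 and 11.08 in ard1 (3.55-fold higher, 1.83 ± 0.13). THI13, of pyrimidine precursor synthesis, was 3.69-fold higher (1.88 ± 0.19), and SNZ3 and SNO3 were higher by 1.03 ± 0.14 and 0.94 ± 0.17. Probe sets for THI13, SNZ3 and SNO3 may also read closely related copies, and their values are uncertain. Members called on this list numbered 2, 4, 5 and 4 with swi4 replicates 1 and 2 and ard1 replicates 1 and 2 left out in turn. In the zinc regulon 2 of 11 rose (18.2%, against 9.07% of all genes). They were IZH4, which encodes a membrane protein of zinc homeostasis (1.49 ± 0.25), and ZRG8 (1.14 ± 0.12).

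Genes of nitrogen use and of amino acid synthesis had few calls or calls in both directions. Of 14 genes of peptide uptake and allantoin use 4 rose and 1 fell (28.6% and 7.14%, against 9.07% and 6.20% of all genes). DAL4, the allantoin permease gene, read 8.52 and 8.34 in swi4, against 6.83 and 6.70 in ard1 (3.18-fold higher, 1.67 ± 0.20), and DAL1, DAL3 and DAL2, of allantoin breakdown, were higher by 0.99 ± 0.15, 0.96 ± 0.25 and 0.87 ± 0.15. OPT2, an oligopeptide transporter gene, was 2.64-fold lower (−1.40 ± 0.18). The 4 rises became 0, 2, 1 and 1 with swi4 replicates 1 and 2 and ard1 replicates 1 and 2 left out in turn, and the OPT2 call was lost without swi4 replicate 1 or ard1 replicate 2. Of 20 amino acid permease genes 3 rose, among them the general permease gene GAP1 (1.18 ± 0.16) and AGP3 (1.16 ± 0.29), and 1 fell, DIP5, the acidic amino acid permease gene (−0.96 ± 0.15). FCY21 and FCY22, which encode relatives of the purine and cytosine permease, were higher by 1.88 ± 0.12 and 1.13 ± 0.16, and ADE4, of purine synthesis, fell (−0.48 ± 0.12). In purine synthesis and uptake these were the 3 calls among 17 genes.

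Arginine and histidine synthesis had 1 call each, of ARG4 (−0.51 ± 0.10) among 8 genes and HIS5 (−0.54 ± 0.10) among 7. All 8 arginine genes had negative differences, with a median of −0.20. In lysine synthesis LYS20 and LYS21, the homocitrate synthase genes, fell (−0.56 ± 0.11 and −0.47 ± 0.10), and LYS9 rose by 0.62 ± 0.09. BAT2, a branched-chain transaminase gene, fell (−0.58 ± 0.12) and was the 1 call among 12 genes of that pathway. In aromatic amino acid synthesis 0 of 12 genes were called in limma (2 at an unadjusted p under 0.05), with TYR1 at −0.34 ± 0.10 (adjusted p = 0.0641), and 2 were called lower with only the 4 arrays in the fit. Of 28 genes of methionine and sulfur metabolism 2 rose and 3 fell (7.14% and 10.7%, against 9.07% and 6.20% of all genes). The sulfate permease genes SUL1 (−0.95 ± 0.24) and SUL2 (0.56 ± 0.12) lay on opposite sides. The other rise was that of MUP3, a methionine permease gene (0.59 ± 0.12), and the other falls were those of MET31, a regulator of sulfur genes (−0.61 ± 0.14), and MET22 (−0.39 ± 0.08). Of the 6 measured auxotrophic marker genes 0 were called in limma (1 at an unadjusted p under 0.05), with HIS3 at −0.29 ± 0.10 (adjusted p = 0.101) and 1 called lower with only the 4 arrays in the fit.

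Central carbon genes outside respiration differed at single steps. CIT2, the peroxisomal citrate synthase gene and a marker of the retrograde response, read 10.91 and 10.91 in swi4, against 12.45 and 12.51 in ard1 (2.98-fold lower, −1.57 ± 0.18). DLD3, also of the retrograde response, fell too (−0.86 ± 0.15). The mitochondrial cycle genes MDH1, KGD1 and KGD2 were higher, by 0.58 ± 0.11, 0.53 ± 0.09 and 0.48 ± 0.09. Of 13 gluconeogenesis and glyoxylate genes 3 rose and 1, CIT2, fell (23.1% and 7.69%, against 9.07% and 6.20% of all genes). PCK1, the phosphoenolpyruvate carboxykinase gene, was 2.51-fold higher (1.33 ± 0.19), CAT8, its activator gene, 2.06-fold higher (1.04 ± 0.12), and MDH2 was higher by 0.63 ± 0.12. Of 16 glycolysis and fermentation genes 0 were called in limma, in the fit of 8 arrays and in that of the 4 arrays alone, and 0 had an unadjusted p under 0.05, with PDC5 at 0.41 ± 0.21 (adjusted p = 0.247). The glucose sensor genes SNF3 (0.71 ± 0.09) and RGT2 (0.65 ± 0.10) were the 2 rises among 19 hexose transporter and sensor genes (10.5%, against 9.07% of all genes).

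Calls among mating genes in the fit of 8 arrays were all rises in swi4. Most members of the lists other than the alpha-specific one were not called in it. With only the 4 arrays in the fit, 9 of 20 pheromone-induced genes were higher and 1 lower, where 18.7% and 22.2% of all genes were. Of 5 alpha-specific genes 4 rose (80.0%, against 9.07% of all genes). They were STE3, which encodes the receptor for a-factor (0.75 ± 0.10), SAG1, an agglutinin gene (0.56 ± 0.12), and both alpha-factor genes, MF(ALPHA)1 and MF(ALPHA)2 (0.43 ± 0.09 each). STE3 read 12.69 and 12.69 in swi4, against 12.03 and 11.85 in ard1. Of 7 a-specific genes 1 rose, BAR1 (0.56 ± 0.10), at 6.16 and 5.93 in swi4, against 5.51 and 5.47 in ard1. The a-specific list had medians of 6.63 and 6.49 in swi4 and 6.33 and 5.98 in ard1, and all 7 of its differences were positive. Its part in the other mating results was not tested. Of 20 pheromone-induced genes 6 rose (30.0%, against 9.07% of all genes) and 0 fell, with a median of 0.21. They included SST2, which dampens pheromone signalling (1.12 ± 0.18), the cell cycle inhibitor gene FAR1 (0.90 ± 0.12), AGA1, an agglutinin anchor gene (0.89 ± 0.19), and FIG1, of mating cell fusion (0.82 ± 0.11). FUS3, the mating kinase gene, was higher by 0.52 ± 0.10, and it and SST2 were the 2 calls among 16 signalling genes, whose median was −0.02 with 9 of 16 negative. FAR1 and FUS3 were the 2 calls among 11 haploid-specific genes, of which 3 were negative. Across the alpha-specific genes 0, 0, 1 and 0 were called with swi4 replicates 1 and 2 and ard1 replicates 1 and 2 left out in turn, and across the pheromone-induced genes 0, 1, 1 and 0.

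The silent mating cassettes had 0 calls in limma among 3 measured genes in either fit, and 0 at an unadjusted p under 0.05. HMRA1 read 4.15 and 4.11 in swi4, against 4.09 and 4.11 in ard1, near the lowest gene mean of 4.02, and HMRA2, on a shared probe set, differed by 0.20 ± 0.12. Of 16 silencing factor genes 3 fell and 1 rose (18.8% and 6.25%, against 6.20% and 9.07% of all genes). Their median was −0.31, and 12 of the 16 were negative (54.2% of all genes were). With only the 4 arrays in the fit, 8 were lower and 1 higher, where 22.2% and 18.7% of all genes were. SAS5, a subunit of the SAS histone acetyltransferase, read 9.33 and 9.41 in swi4, against 10.16 and 10.28 in ard1 (−0.85 ± 0.09). RAP1, the telomere and promoter binding factor gene, and SIR2, the silencing deacetylase gene, fell (−0.69 ± 0.11 and −0.67 ± 0.12), while YKU70, of the telomere end-binding Ku complex, was higher by 0.53 ± 0.13. Among the 9 N-terminal acetyltransferase genes NAT4 (0.34 ± 0.09), which acts on histones, was the only call besides ARD1. NAT1, the partner of Ard1 in NatA, differed by 0.37 ± 0.12 without a call (adjusted p = 0.0792).

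Of 18 genes of cell wall sensors and the PKC pathway 6 rose (33.3%, against 9.07% of all genes) and 0 fell, with a median of 0.24. WSC4 read 8.39 and 8.45 in swi4, against 7.05 and 7.05 in ard1 (2.59-fold higher, 1.37 ± 0.11), and WSC3, another sensor gene, was higher by 0.58 ± 0.15 (adjusted p = 0.0443). The WSC4 call was kept whichever of the 4 arrays was left out, and the WSC3 call was lost in each omission. SDP1, a phosphatase gene of the pathway's kinase, rose by 1.30 ± 0.22 and ROM1, an exchange factor gene for Rho1, by 1.19 ± 0.11. Calls on this list numbered 2, 2, 2 and 3 with swi4 replicates 1 and 2 and ard1 replicates 1 and 2 left out in turn. Of 38 cell wall protein and enzyme genes 7 rose and 4 fell (18.4% and 10.5%, against 9.07% and 6.20% of all genes). The fall beside those of TOS6, HPF1 and SVS1 was that of SRL1 (−0.39 ± 0.08). EXG2, a glucanase gene, was higher by 0.81 ± 0.11. The 7 rises became 1, 1, 2 and 2 in the same omissions. NCA3, of the SUN family, read 12.06 and 12.49 in swi4, against 10.97 and 10.94 in ard1 (2.50-fold higher, 1.32 ± 0.16). MIT1, a regulator of filamentous growth, was higher by 0.89 ± 0.12, the 1 call among 11 flocculin and filamentation genes, all of which had positive differences.

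Among the TIR and DAN mannoprotein genes DAN1 (−1.36 ± 0.36) and TIR1 (−0.44 ± 0.12) were lower and TIR3 (0.50 ± 0.11) higher, of 8 measured. COS9 (0.77 ± 0.14) was the 1 call among 8 COS genes, and ERG13 (0.45 ± 0.09), of early sterol synthesis, the 1 call among 24 ergosterol genes. Of 13 seripauperin genes 0 were called in limma (4 at an unadjusted p under 0.05), and 4 were higher with only the 4 arrays in the fit. PAU7 was nearest, at 0.93 ± 0.25 with an adjusted p of 0.0533, and 10 of the 13 are on shared probe sets. Of 33 proteasome genes 0 were called in limma (1 at an unadjusted p under 0.05), with RPN11 at −0.29 ± 0.13, and 1 was higher and 3 lower with only the 4 arrays in the fit. Of 39 meiosis and sporulation genes 8 rose and 1 fell (20.5% and 2.56%, against 9.07% and 6.20% of all genes). SPS19, which encodes a peroxisomal reductase, was higher by 1.40 ± 0.27, HOP1, of the meiotic chromosome axis, by 1.30 ± 0.18, DIT1, of the spore wall, by 1.04 ± 0.18 and DMC1, the meiotic recombinase gene, by 1.0 ± 0.26. SPO19 was 2.09-fold lower (−1.07 ± 0.13). Their calls numbered 0 to 3 higher when 1 of the 4 arrays was left out.

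The wt arrays were no part of the comparison, and their levels are given here only to place the 2 mutants, with no test. TOS6 read 12.65 and 12.75 in wt, near its ard1 level, and CSI2 read 9.29 and 9.37 in wt, also near ard1. FCY21 read 10.34 and 10.17 in wt, near its swi4 level, as ROM1 did at 8.56 and 8.73. For FIT2 the wt arrays read 11.40 and 11.26, between the swi4 and ard1 levels, and MSA2 at 8.76 and 8.82 and PHO3 at 12.23 and 12.33 also lay between. Other genes had other placements. HPF1 read 10.87 and 10.92 in wt, nearer its swi4 level. In wt SVS1 at 12.53 and 12.72 and WSC4 at 9.49 and 9.45 lay above both mutants, and NCA3 at 10.06 and 10.25 lay below both. For the mitochondrial ribosomal proteins the list medians were 9.43 and 9.41 in swi4, 10.09 and 10.14 in ard1 and 9.52 and 9.83 in wt. For the respiratory chain they were 12.04 and 11.89 in swi4, 11.34 and 11.28 in ard1 and 11.55 and 11.72 in wt. For trehalose and glycogen metabolism they were 12.15 and 12.02 in swi4, 11.14 and 11.67 in ard1 and 12.23 and 12.26 in wt. The wt replicates differed in their median over genes, at 9.29 and 9.50, against 9.30 and 9.29 in swi4 and 9.31 and 9.33 in ard1.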

How the data were processed

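What the authors deposited is 1 linear intensity per probe set for each array, and RMA is the method that the submitters' processing notes name. It removes background, equalises the intensity distributions across arrays and combines probes into 1 value, and no version is named in the sources used here. The distributions of the deposited values were not equal. Their median over all probe sets ran from 623 in swi4 replicate 2 to 713 in wt replicate 2. That the scale is linear follows from the values, whose range was 15.2 to 35540, so log2 values were computed first. Such values do not give signal over background, and the number of arrays limits the precision. P-values measure the spread between the samples labelled biological replicates.

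Of 5814 probe sets 5498 had 1 gene symbol in the platform annotation, 0 had several, 98 were control or reporter probe sets and 218 were unnamed in the annotation table. Symbols were brought up to date with RefSeq genes of assembly R64, where all 5449 were found and 12 symbols changed. For 47 genes with several probe sets the one with the highest mean was used, and 117 genes are read by a probe set that may be shared between transcripts. Groups came from the sample titles.

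Differences were fitted with limma 3.58.1 in R 4.3.3 over the 8 arrays with 4 group means (4 residual degrees of freedom, 2.73 added by the prior), two-sided, with Benjamini-Hochberg adjustment over the 5449 genes. Alternatives changed the arrays in the fit, the replicate block, scaling, the dim-gene filter, the variance model and the choice of probe set. Lists were described by counts and medians beside those of all genes, with no set test. Named genes were the deleted genes and their neighbours, the 14 largest called rises and falls with groups that do not overlap, and per list up to 4 called members in each direction, or the largest difference where none was called. CLN2, CLN3, WHI5, SWI6, MBP1, HSP12, HSP26, NAT1, HMRA1, MRPL4 and the genes with control probe sets were named for their role with values known. The members and the 50 lists were chosen with earlier results of these data known. The result of 1 list is not reported here. A planned search for promoter motifs was not run, because no promoter sequences were used here.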

Additional observations from a re-analysis of the deposited data

How the results depend on the processing

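The directions of the 150 named genes, including SWI4 and ARD1, held in each alternative that tested them. In the fits that changed only the spread this was fixed in advance, since the difference of the group means stayed the same. These were the fits with the 4 arrays, the replicate block, array weights or another variance model. They also include those without dim genes or without a wt or dot1 array. Most named genes were also chosen for a call, so leaving out 1 array was unlikely to reverse them. The counts of calls did not hold. The 494 genes higher and 338 lower became 1017 and 1210 with only the 4 swi4 and ard1 arrays in the fit, and 1089 and 1188 with array weights by group, which gave the swi4 and ard1 arrays more weight (2.45 and 1.66) than the dot1 and wt arrays (0.623 and 0.394). With the replicate number as a block they became 802 and 745. The numbers are shared across groups, but nothing in the labels pairs the cultures. Same-numbered swi4 and ard1 arrays deviated from their group means with a correlation of 0.35 over genes. Leaving out 1 array gave between 32 and 617 genes higher and between 24 and 623 lower, and between 27 and 123 higher and between 23 and 67 lower among calls of at least 2-fold. The lowest of these came from leaving out swi4 replicate 1, and the highest from leaving out a wt array, with 123 also reached without a dot1 array. SWI4 gave between −0.86 and −0.73 and lost its call without any 1 of the 4 arrays compared. It was not tested after the dimmest 25% of genes were left out. Apart from the wider SE where a compared group keeps 1 array, the cause of the other changes was not tested. Median centring gave 546 higher and 461 lower, and quantile normalization 555 and 461. Of 139 calls of named genes 27 were kept whichever of the 4 arrays was left out. Of the 832 calls 175 were of genes in the dimmest 25%, where intensity limits what can be told apart.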

Other observations

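The array carries control probe sets to the 5′ end, middle and 3′ end of a few yeast genes, which were not used in the fits. They gave differences close to those of the genes' own probe sets. For RIP1, the iron-sulfur protein gene of the cytochrome bc1 complex, the controls differed by 1.05, 1.17 and 1.08 between swi4 and ard1, against 1.03 for the gene's probe set (limma, adjusted p = 0.0112). For ACT1, the actin gene, they differed by −0.05, −0.02 and −0.01, against −0.01. For EAF5, a subunit gene of the NuA4 acetyltransferase, they differed by −0.29, −0.72 and −0.77, against −0.80. The 5′ control of EAF5 was dim, at 4.48 and 4.55 in swi4 and 4.82 and 4.80 in ard1.

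The URA3 controls stayed near the lowest levels of the array in both mutants, between 4.19 and 4.30 in swi4 and between 4.16 and 4.25 in ard1.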
